A study of Mus musculus with 6 samples.

Results

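The machinery of regulated cell death in the piriform cortex, the olfactory cortex of the ventral forebrain, was followed through 35 genes: initiator and inflammatory caspases and Casp6, the BCL2 family, the inhibitors of apoptosis, and the genes of death receptor signalling, necroptosis and the inflammasome. They were chosen by gene name, and all 35 of them were found among the 53715 genes of the count table. The tissue came from Gad2-Cre mice, which express Cre recombinase where the GABA-synthesising enzyme Gad2 is active, so that every mouse carried the driver. In the Caspase3 group (3 libraries) the piriform cortex of 1 side had been injected with AAV-DIO-Caspase3, an adeno-associated virus whose caspase 3 is switched on by Cre. The GFP group (3 libraries) had received AAV-DIO-GFP, the same kind of vector with a fluorescent protein. The comparison asks which cell death transcripts differ in bulk poly(A) RNA of cortex in which GABAergic neurons were targeted for apoptosis. The sources used here do not give age, sex, the interval after injection, the hemisphere sampled or whether each library is a different animal. The p-values therefore reflect only how much the libraries of a group vary, part of which may be technical.

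In apoptosis, BH3-only proteins sense damage and free the effectors Bax and Bak1 from survival proteins such as Bcl2, cytochrome c leaves the mitochondria, and Apaf1 then activates caspase 9 and the executioner caspases. Necroptosis runs from Ripk1 through Ripk3 to the membrane-disrupting Mlkl when caspase 8 is blocked. In pyroptosis, sensors such as Nlrp3 and Aim2 assemble with the adaptor Pycard and activate caspase 1, which cleaves gasdermin D (Gsdmd) into a pore and matures interleukins. In the brain the inflammasome genes are expressed mostly in microglia, while the BCL2 family is expressed across neurons and glia.

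Libraries held 20424581 to 24227361 counts in the Caspase3 group and 22101015 to 26268377 in the GFP group, and 3 counts corresponded to 0.118 to 0.142 CPM (the count relative to the TMM-scaled library total). Gad2 was 3.04-fold lower in the Caspase3 group (adjusted p = 0.00371). The summed level of 7 markers of piriform and other pallial neurons was 265.2 to 279.1 CPM in the Caspase3 libraries and 238.5 to 347.6 CPM in the GFP libraries. GFP replicate 3 stood apart by 7 markers of striatal projection neurons, at 1144 CPM in sum against 188.5 to 295.8 CPM in the other libraries. Caspase3 replicate 1 was the farthest of its group on the first principal component. In bulk tissue, fewer cells of a type and less RNA per cell cannot be told apart.

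Of the 35 genes, 34 had enough counts to be tested with edgeR, and 4 rose in the Caspase3 group at an adjusted p under 0.05: Casp1, Casp12, Gsdmd and Birc3. Of all 16721 genes tested, 1.53% rose by the same rule and 0.114% fell. None of the 34 fell, none with an unadjusted p under 0.05 was lower, and DESeq2 and limma-voom called none lower. The 3 genes of pyroptosis and inflammatory caspase signalling rose 2.19-fold to 3.12-fold, and Birc3, a ubiquitin ligase that restrains death signalling from TNF receptors, rose 2.09-fold. The levels of Bcl2, Mcl1, Casp9 and Bax overlapped between the groups. All Caspase3 libraries lay above all GFP libraries for 11 of the 34 tested genes, against 8.96% of all genes tested. No tested gene of the set lay below in this way, against 6.29% of all. The median log2 fold change of the 34 was 0.34, beside a median of 0.00 over all genes tested, and 29 of the 34 values were positive.

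The 4 calls did not all hold in any fit with 1 library left out. Rises over all genes were fewer in each of these fits as well, as given at the end. Without GFP replicate 2 or without GFP replicate 3, none of the 34 passed. Casp1 alone passed without Caspase3 replicate 1, Caspase3 replicate 3 or GFP replicate 1, and Casp1 and Gsdmd passed without Caspase3 replicate 2. Over these 6 fits the log2 fold change of Casp1 stayed between 1.55 and 1.76, that of Casp12 between 1.07 and 1.19, that of Gsdmd between 1.21 and 1.55 and that of Birc3 between 0.97 and 1.16. DESeq2 called 6 of the genes higher, adding Pycard and Casp8, and limma-voom called 3, without Gsdmd. With the sample number as a replicate block 3 were called, without Birc3 (adjusted p = 0.0505).

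**Figure D1:**
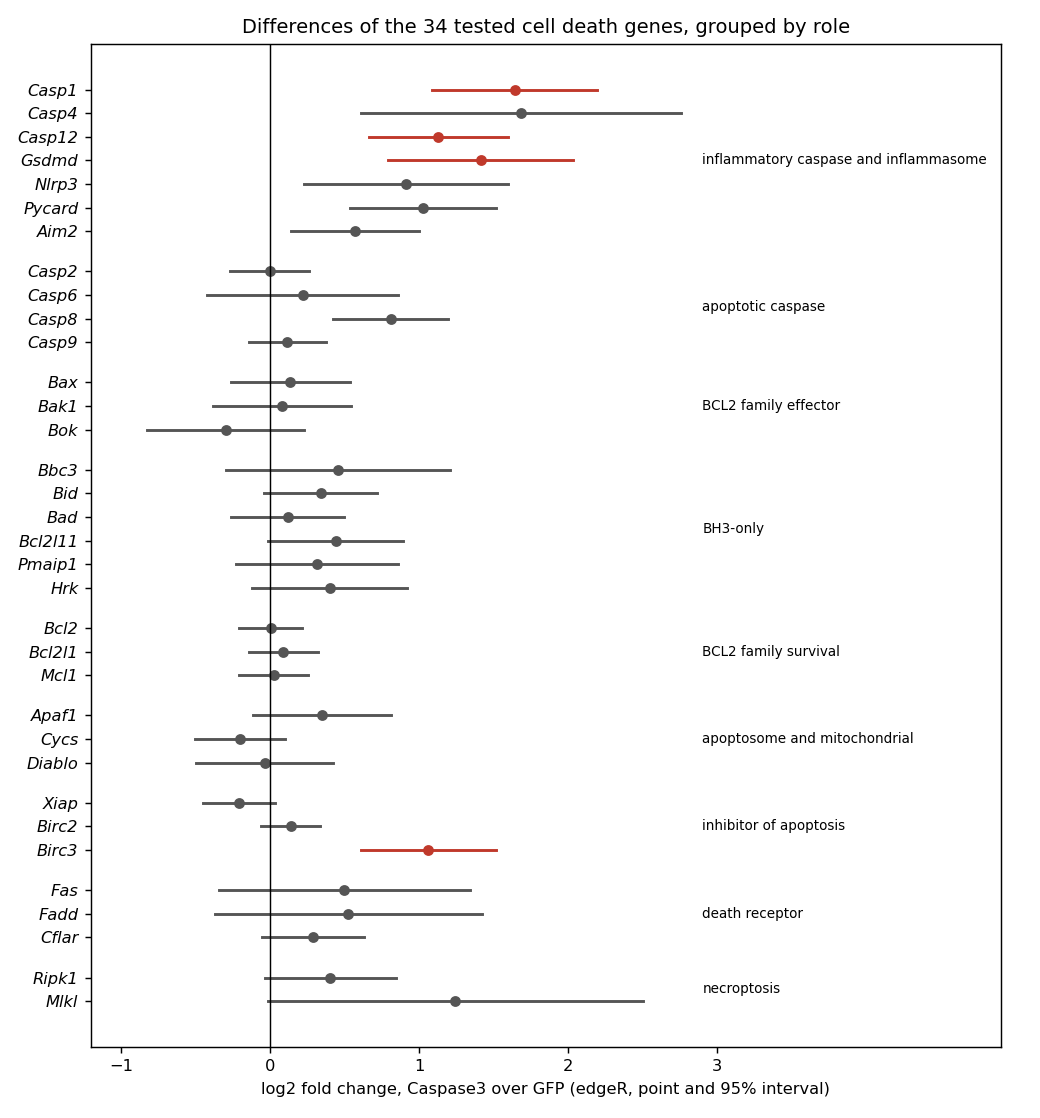
The plot gives the log2 fold change (x axis, Caspase3 over GFP, edgeR) of each of the 34 tested genes with its 95% interval, grouped by role on the y axis, and the 4 genes that passed are in red. The intervals of all 7 inflammatory caspase and inflammasome genes, of Casp8 and of Birc3 lie above 0, and the intervals of the other 25 include 0.

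The inflammatory caspases stand side by side on chromosome 9 of GRCm38, in a stretch of 74516 bases (5298517 to 5373032) that holds Casp1, Casp4 and Casp12 and no other gene of the count table. Birc2 and Birc3 are neighbours on the same chromosome, within 54960 bases (7818227 to 7873186). The promoters of the 3 neighbouring caspases and of Birc3 are shown because 3 of these 4 genes rose and Casp4 lies between Casp1 and Casp12. Each run covers 250 bases before to 50 after the RefSeq start site (GRCm38.p6), 5′ to 3′ on the gene's strand. Capitals mark matches to the core of the GAS element, TTCNNNGAA, which STAT factors bind, or to the kappa-B consensus, which NF-kappa-B binds, on either strand.
Casp1 (chr9:5298267-5298566, plus strand): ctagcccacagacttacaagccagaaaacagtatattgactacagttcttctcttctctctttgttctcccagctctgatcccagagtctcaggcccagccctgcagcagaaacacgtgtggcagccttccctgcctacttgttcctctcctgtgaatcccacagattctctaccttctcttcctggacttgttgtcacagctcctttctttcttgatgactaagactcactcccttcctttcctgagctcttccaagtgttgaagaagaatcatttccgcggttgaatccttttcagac
Casp4 (chr9:5308599-5308898, plus strand): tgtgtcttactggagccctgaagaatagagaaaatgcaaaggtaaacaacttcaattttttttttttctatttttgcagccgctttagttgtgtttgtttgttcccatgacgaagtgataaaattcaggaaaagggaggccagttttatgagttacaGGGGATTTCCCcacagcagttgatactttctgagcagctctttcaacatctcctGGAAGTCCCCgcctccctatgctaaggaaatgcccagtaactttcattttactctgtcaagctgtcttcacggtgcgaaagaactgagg
Casp12 (chr9:5345226-5345525, plus strand): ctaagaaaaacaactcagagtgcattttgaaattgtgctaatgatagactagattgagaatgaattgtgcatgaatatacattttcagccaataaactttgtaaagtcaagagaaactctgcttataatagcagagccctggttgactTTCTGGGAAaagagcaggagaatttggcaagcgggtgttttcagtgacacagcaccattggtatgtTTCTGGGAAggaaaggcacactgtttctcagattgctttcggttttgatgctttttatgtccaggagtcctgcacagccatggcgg
Birc3 (chr9:7873121-7873420, minus strand): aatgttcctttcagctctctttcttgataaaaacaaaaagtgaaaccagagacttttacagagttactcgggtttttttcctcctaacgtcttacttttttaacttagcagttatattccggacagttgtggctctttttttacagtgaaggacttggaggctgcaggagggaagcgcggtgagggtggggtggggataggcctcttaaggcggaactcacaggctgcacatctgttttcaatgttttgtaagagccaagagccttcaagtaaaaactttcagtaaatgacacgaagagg

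The Casp12 window held 2 copies of the GAS core, 102 and 36 bases before the start site by their first base (-102 and -36). The first Casp4 window held 3 kappa-B matches, of which the pair starting at -93 and -92 overlap in 1 capital run. The windows of Casp1 and Birc3 held no match to either motif, nor to the core of the interferon-stimulated response element, which is GAAA, any 2 bases and GAAA again. RefSeq windows were used for 33 of the 35 genes, 45 windows in all. None was found for Gsdmd, and member windows on chromosome 18, which holds Pmaip1, were left out. Of the 45, 4.44% held the response element core (Cflar and Ripk1), 6.67% the GAS core (Casp12, Fas and Ripk1) and 15.6% the kappa-B consensus (Bbc3, Bcl2l1, Casp4, Hrk, Nlrp3 and Xiap). Some genes have several windows that overlap, such as the Casp4 pair with the same kappa-B matches. By gene, 2, 3 and 6 of the 33 held these motifs. Among all 32851 windows of the same length the shares were 3.44%, 8.30% and 8.46%. These matches describe the letters of the windows and not bound sites.

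Casp1 (ENSMUSG00000025888, chromosome 9, 5298517 to 5307265, plus strand), the protease at the centre of the inflammasome, stood at 3.55, 3.59 and 2.64 CPM in Caspase3 replicates 1 to 3 and at 1.21, 0.989 and 0.921 CPM in GFP replicates 1 to 3. Every Caspase3 library exceeded the highest GFP library more than 2-fold. It rose 3.12-fold (log2 fold change 1.64 ± 0.24 SE, adjusted p = 0.0116). Counts were low, with 75, 79 and 67 in the Caspase3 libraries and 26, 25 and 21 in the GFP libraries.

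Casp12 (chromosome 9, 5345430 to 5373032), a relative of caspase 1 linked to the endoplasmic reticulum, stood at 3.36, 3.04 and 3.15 CPM in the Caspase3 libraries and at 1.58, 1.42 and 1.36 CPM in the GFP libraries. It had the tightest replicates of the genes that rose, with means of 3.18 ± 0.161 CPM and 1.46 ± 0.115 CPM (SD, n = 3 each). It rose 2.19-fold (log2 fold change 1.13 ± 0.21, adjusted p = 0.0301). The remaining caspase of the locus, Casp4 (5308828 to 5336783), which senses cytosolic lipopolysaccharide, was at 1.75, 0.908 and 1.26 CPM against 0.559, 0.514 and 0.132 CPM. Its groups did not overlap, but GFP replicate 3 held 3 counts only, and its log2 fold change of 1.68 ± 0.47 did not pass (adjusted p = 0.183). Without GFP replicate 3 the value was 1.26.

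Gsdmd (chromosome 15, 75862327 to 75867408), the pore-forming substrate of caspase 1, was measured at 3.27, 2.32 and 3.23 CPM in the Caspase3 libraries and at 1.26, 0.791 and 1.27 CPM in the GFP libraries. The groups were separate, with Caspase3 replicate 2 and GFP replicate 2 the low library of each. Gsdmd rose 2.66-fold (log2 fold change 1.41 ± 0.28, adjusted p = 0.0414). Leaving out GFP replicate 2 gave the lowest fold change, 1.21.

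Among the 35 genes, the inflammasome sensors Nlrp3 and Aim2 and the adaptor Pycard did not pass with edgeR, though none of them overlapped between groups. Naip5, a sensor outside the 35, rose and is given below. Pycard (chromosome 7), the adaptor that links sensors to caspase 1, stood at 3.22, 3.54 and 2.76 CPM against 1.54, 1.42 and 1.71 CPM (log2 fold change 1.02 ± 0.22, adjusted p = 0.0589). The sensor Nlrp3 (chromosome 11) stood at 1.94, 1.18 and 1.46 CPM against 0.977, 0.712 and 0.746 CPM (log2 fold change 0.91 ± 0.30, adjusted p = 0.291). Caspase3 replicate 2 and GFP replicate 1 came closest to each other. The DNA sensor Aim2 (chromosome 1) stood at 4.07, 3.72 and 4.29 CPM against 2.47, 2.57 and 3.11 CPM (log2 fold change 0.57 ± 0.19, adjusted p = 0.293). In sum, the 7 inflammatory caspase and inflammasome genes reached 21.2, 18.3 and 18.8 CPM in the Caspase3 libraries and 9.59, 8.42 and 9.26 CPM in the GFP libraries. Pycard passed with DESeq2 (adjusted p = 0.0342).

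**Figure D2:**
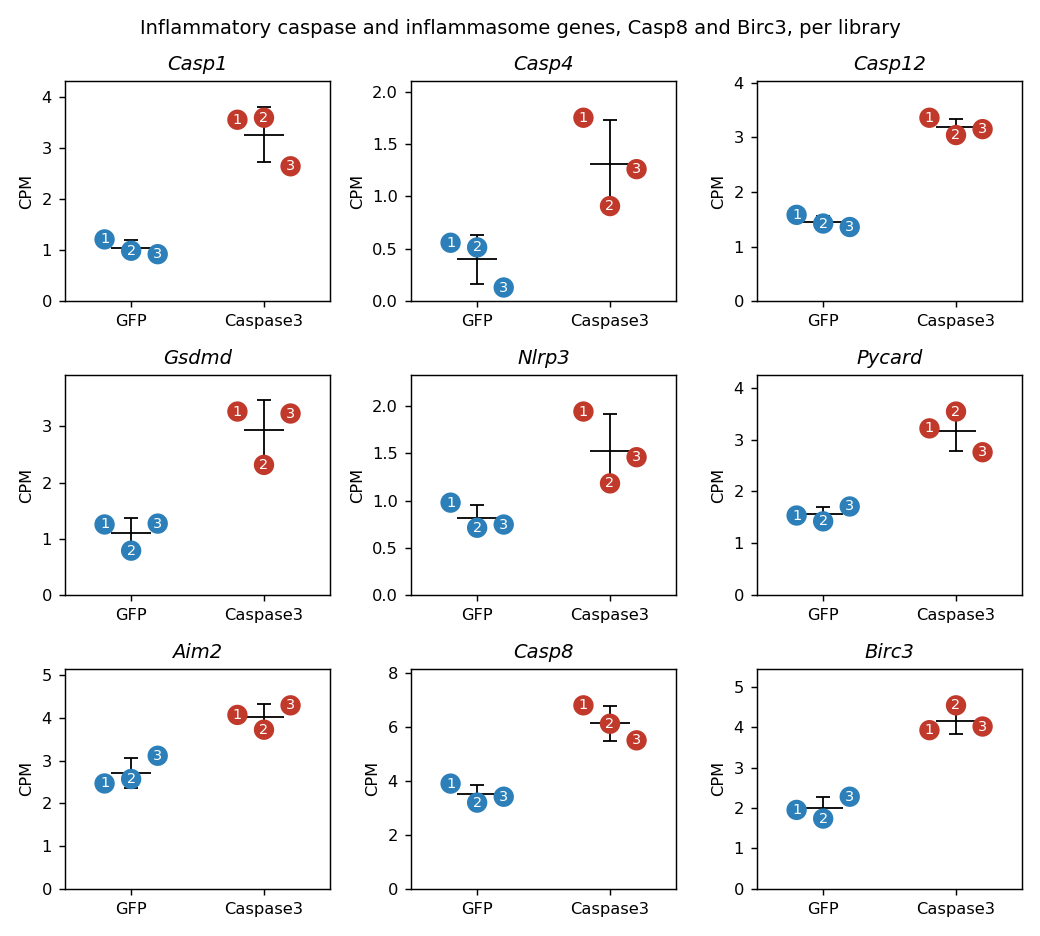
Each panel plots CPM (y axis, from 0) of 1 gene in the GFP (blue) and Caspase3 (red) libraries, with the replicate number in each point and bars for the mean and SD of 3 libraries. In all 9 panels every Caspase3 library lies above every GFP library, and for Casp4 the low value is GFP replicate 3, at 0.132 CPM.

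Markers of microglia moved with these genes. Of 14 microglial markers 11 rose, and their summed level was 816.9 to 1173 CPM in the Caspase3 libraries and 434.6 to 521.1 CPM in the GFP libraries. The median fold over all 14, the 3 that did not pass included, was 2.23, from 1.12 (P2ry12, which overlapped between groups) to 3.20 (Ctss), and none was at 0 in any library. Aif1 (IBA1), a calcium-binding protein of microglia, rose 2.54-fold. Set beside these sums, Casp1 came to 3.03, 4.35 and 3.23 CPM per 1000 CPM of microglial markers in the Caspase3 libraries and 2.32, 2.25 and 2.12 in the GFP libraries, which did not overlap. Casp4, Casp12, Gsdmd, Nlrp3, Pycard, Aim2, Casp8 and Birc3 overlapped on that scale. Their ratios of group means lay between 0.746 for Aim2 and 1.63 for Casp4. The markers in the sums rose unequally, from 1.12-fold for P2ry12 to 3.20-fold for Ctss. Ctss was also the largest single part of the sum in every Caspase3 library. The scale therefore depends on which markers are listed and is not a count of microglia. Whether microglial content accounts for the values of Casp1 or of the genes that overlapped was not tested.

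Other lists moved as well. All 10 interferon-stimulated genes examined rose, with sums of 269.4 to 729.5 CPM against 43.3 to 63.8 CPM. Of 12 T and NK cell markers, 5 were tested and 4 rose, with sums of 4.53 to 11.5 CPM against 0.751 to 4.74 CPM. The 4 were Cd3e, Cd8a, Cd8b1 and Ms4a4b. They were under the count filter in every GFP library, so they were tested only because of their Caspase3 counts. Cd3d, Prf1 and Ncr1 were at 0 in every GFP library and had few counts in Caspase3 replicates 1 to 3 (11, 5 and 6, then 7, 7 and 3, then 3, 2 and 1). Cd4 did not follow them (log2 fold change -0.86, adjusted p = 0.782), and its 4.12 CPM in GFP replicate 3 made up most of the sum of that library. Gzma and Gzmb had counts in GFP replicates 1 and 3. Gzma was at 0 in Caspase3 replicate 2 and Gzmb in Caspase3 replicate 3. Of 10 monocyte and neutrophil markers, 5 were tested and 1, Lyz2, rose. The sums of the 10 were 52.3 to 109.3 CPM against 27.1 to 44.6 CPM. Most of each sum came from Lyz2, Mrc1 and Cd163, at 41.2, 40.3 and 23.9 CPM in Caspase3 replicate 1. Ccr2 overlapped between groups, while Ly6c2 and Plac8, at low counts, did not. S100a8, S100a9 and Chil3 had at most 2 counts in any library. Ly6g was at 0 in all libraries, so the sums describe the list and not a cell type. Sums of 8 astrocyte markers overlapped, but 1 of them, Gfap, an intermediate filament of reactive astrocytes, rose 2.47-fold (adjusted p = 0.0099, 386.3 to 584.6 CPM against 158.6 to 235.8 CPM). Sums of 10 GABAergic markers were lower, 398.1 to 589.8 CPM against 697.5 to 994.2 CPM, and 1 of them, Gad2, fell. The part that any of these lists has in the cell death values was not tested.

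**Figure D3:**
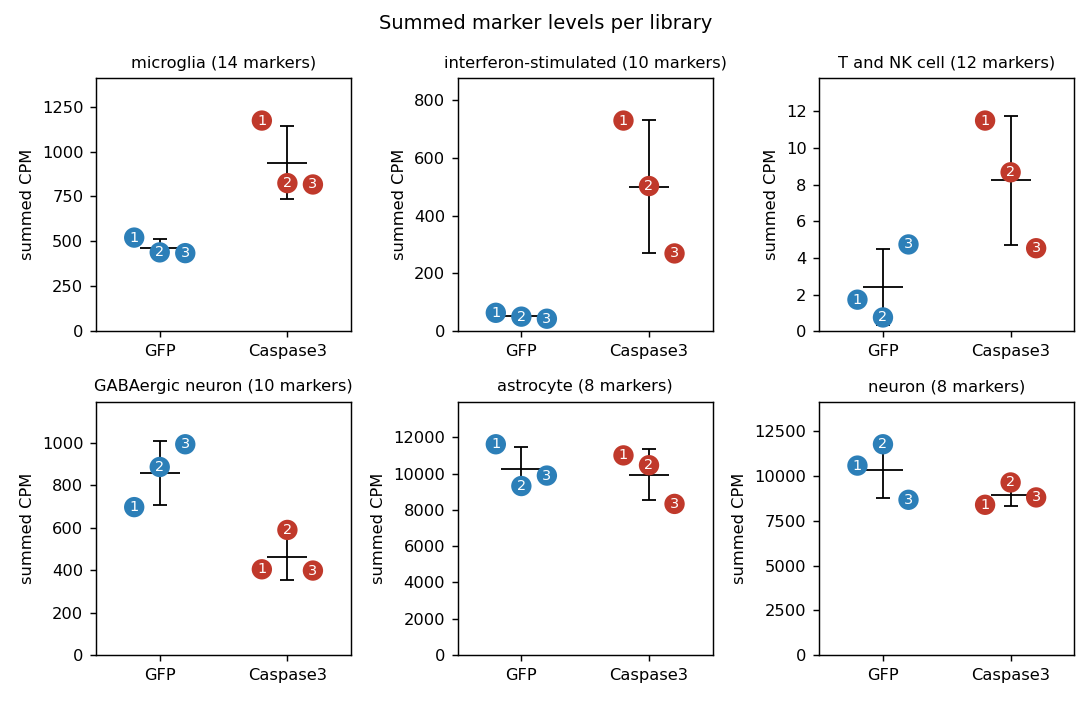
Summed CPM (y axis, from 0) of 6 marker lists is plotted for each GFP (blue) and Caspase3 (red) library, numbered by replicate, with mean and SD of 3 libraries. Microglial and interferon-stimulated sums are higher in every Caspase3 library, GABAergic sums are lower, and astrocyte and general neuronal sums overlap, although the astrocyte marker Gfap itself rose.

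Among the inhibitors of apoptosis, which block caspases or tag death signalling proteins with ubiquitin, only Birc3 passed. Birc3 (cIAP2, chromosome 9, minus strand) stood at 3.93, 4.54 and 4.02 CPM in the Caspase3 libraries and 1.95, 1.74 and 2.28 CPM in the GFP libraries. The groups were well separated (log2 fold change 1.06 ± 0.20, adjusted p = 0.0356). Its neighbour and relative Birc2 (cIAP1) was at 41.3, 43.3 and 43.7 CPM against 40.8, 37.8 and 37.9 CPM. The groups of Birc2 did not overlap either, but the log2 fold change was 0.14 ± 0.09 (adjusted p = 0.632). Xiap (chromosome X), the inhibitor that binds caspases directly, had 208.4, 253.8 and 215.9 CPM against 273.5, 259.4 and 249.7 CPM. Caspase3 replicate 2 lay within the GFP range, and the log2 fold change of -0.21 had a 95% interval from -0.45 to 0.03. Of the 50-base words of Birc3 transcripts, 7.38% also occur in transcripts of other genes, and 1.49% of those of Birc2.

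The death receptor branch did not pass. Casp8 (chromosome 1, 58795374 to 58847503), the initiator caspase of death receptors and the brake on necroptosis, came nearest, at 6.81, 6.13 and 5.52 CPM in the Caspase3 libraries and 3.91, 3.20 and 3.42 CPM in the GFP libraries. Its groups did not overlap. The log2 fold change was 0.81 ± 0.17, the adjusted p 0.0591, and 0.0194 with DESeq2. Cflar (cFLIP), which lies in the same region of chromosome 1 and dampens caspase 8, had a log2 fold change of 0.29 with a 95% interval from -0.06 to 0.63. The receptor Fas stood at 1.33, 2.59 and 1.85 CPM against 1.12, 0.910 and 2.06 CPM, so that GFP replicate 3 exceeded 2 Caspase3 libraries. Its adaptor Fadd had a log2 fold change of 0.53 ± 0.40.

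Necroptosis transcripts were scarce. Ripk3, the kinase that phosphorylates Mlkl, gave 6, 13 and 5 counts in the Caspase3 libraries and 1, 1 and 6 in the GFP libraries, too few to be tested. Mlkl (chromosome 8), the executioner, was at 0.946, 1.23 and 0.433 CPM against 0.186, 0.237 and 0.658 CPM. GFP replicate 3 lay above Caspase3 replicate 3, and the log2 fold change of 1.24 ± 0.56 did not pass (adjusted p = 0.478). Mlkl met the count filter in all 3 Caspase3 libraries and in 1 GFP library, and Casp4 in 3 and 2, so for these genes the filter itself leaned on the group with more counts. Ripk1, the upstream kinase that can promote survival or death, was better covered, at 13.4, 9.40 and 8.94 CPM against 8.24, 6.68 and 9.08 CPM. Its 95% interval ran from -0.03 to 0.84 around a log2 fold change of 0.40.

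Among the 35 genes, none of the BCL2 family, apoptosome and mitochondrial genes passed with edgeR, DESeq2 or limma-voom. None of them had an unadjusted p under 0.05 either. Bmf, a BH3-only gene outside the 35, rose and is given below. The survival gene Bcl2 (chromosome 1) was at 36.8, 40.0 and 37.7 CPM in the Caspase3 libraries and 39.0, 35.1 and 40.0 CPM in the GFP libraries. The ranges were nearly the same, and the 95% interval of the log2 fold change ran from -0.21 to 0.22. Mcl1, a short-lived survival protein, stood at 123.7, 148.1 and 123.3 CPM against 133.9, 122.7 and 131.5 CPM (interval -0.20 to 0.26). Bcl2l1, which encodes BCL-XL, stood at 83.5, 69.4 and 71.1 CPM against 69.5, 65.9 and 75.0 CPM (interval -0.14 to 0.32). For these 3 survival genes the intervals stayed within 0.32 log2 units of 0.

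The effectors that permeabilise the outer mitochondrial membrane overlapped as well. Bax was at 7.81, 5.59 and 7.72 CPM against 7.17, 6.17 and 5.88 CPM, with Caspase3 replicate 2 the lowest of all 6. Bak1 was at 5.30, 3.82 and 3.58 CPM against 3.77, 4.39 and 3.82 CPM. The log2 fold changes were 0.14 ± 0.18 and 0.08 ± 0.20, and that of Bok, another member of this class, was -0.30 ± 0.23.

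The 6 BH3-only genes among the 35, which sense stress and start apoptosis, had positive log2 fold changes of 0.12 (Bad) to 0.45 (Bbc3). None of these 6 passed with edgeR, DESeq2 or limma-voom or had an unadjusted p under 0.05. Bbc3 (PUMA), a p53 target, stood at 1.51, 1.04 and 2.25 CPM against 1.16, 1.38 and 0.965 CPM. Caspase3 replicate 2 was inside the GFP range. Hrk, a neuronal member and the most abundant of the 6 by FPKM, stood at 59.7, 108.2 and 117.2 CPM against 86.1, 67.8 and 62.3 CPM. Caspase3 replicate 1 was the lowest of all 6 libraries, and without it the log2 fold change moved from 0.40 to 0.65 (adjusted p = 0.0536). The log2 fold changes of Bcl2l11 (BIM) and Pmaip1 (NOXA) were 0.44 and 0.31. Bid, which caspase 8 cleaves, was at 4.73, 4.95 and 5.71 CPM against 3.91, 4.43 and 3.82 CPM, groups that did not overlap (log2 fold change 0.34, adjusted p = 0.53).

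Downstream of the mitochondria, Apaf1, the scaffold of the apoptosome, was lowest in Caspase3 replicate 1 and GFP replicate 3, which were practically level. It was at 19.8, 36.1 and 29.3 CPM in Caspase3 replicates 1 to 3 and 25.9, 21.3 and 19.8 CPM in the GFP libraries. Its log2 fold change was 0.35 ± 0.20, and 0.55 without Caspase3 replicate 1 (adjusted p = 0.146). Casp9, the caspase that the apoptosome activates, stood at 22.6, 24.3 and 25.2 CPM against 23.0, 23.9 and 19.6 CPM (interval -0.14 to 0.37). Cytochrome c (Cycs) had a log2 fold change of -0.20 ± 0.13 and Diablo, which displaces inhibitors of apoptosis, -0.04 ± 0.20. Of the 50-base words of Cycs transcripts 25.9% occur in other genes' transcripts, most often a pseudogene, and 17.6% of those of Diablo, so their counts depend on how shared reads were assigned. The initiator Casp2 had an interval from -0.27 to 0.26 and the executioner Casp6 from -0.42 to 0.86.

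**Figure D4:**
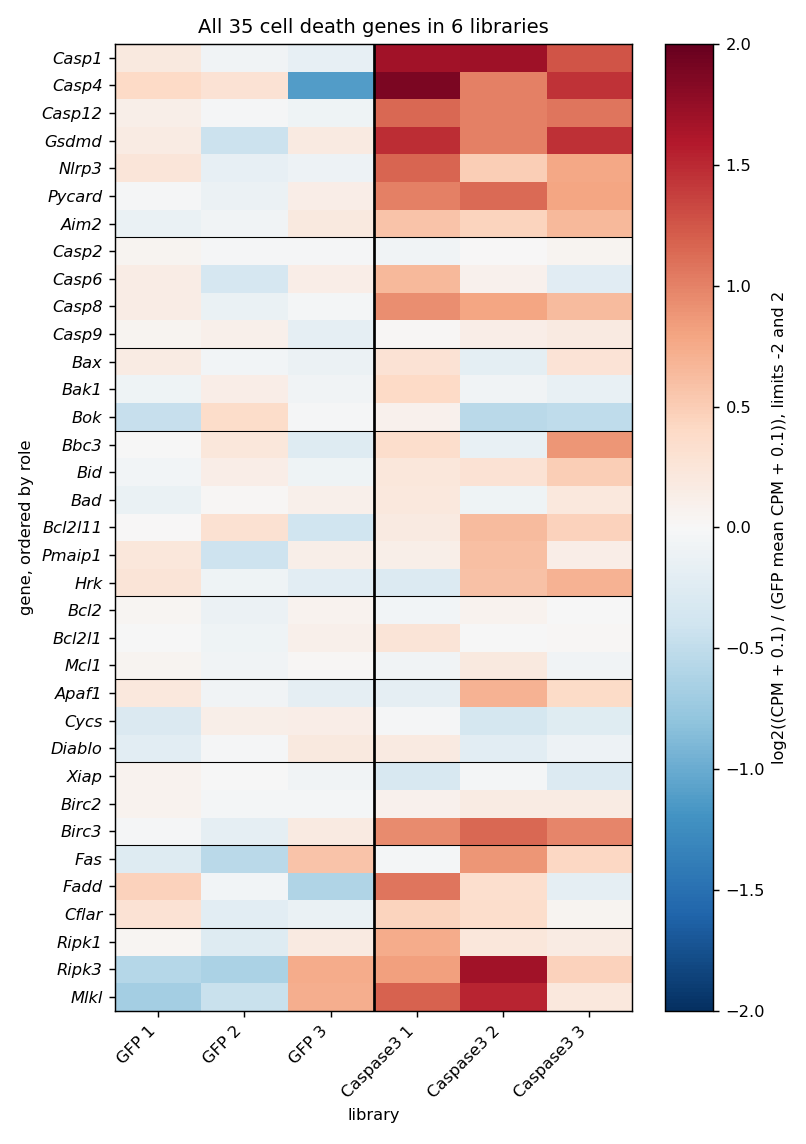
Each row is 1 of the 35 genes ordered by role and each column a library, coloured by log2((CPM + 0.1) / (GFP mean CPM + 0.1)) between -2 and 2. The first 7 rows, Casp8 and Birc3 are red in all Caspase3 libraries, Hrk and Apaf1 are pale blue in Caspase3 replicate 1 and red in the other Caspase3 libraries, and Ripk3, Mlkl and Fas are red in GFP replicate 3.

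Per unit of length, the genes that rose were among the sparse ones. On the deposited FPKM scale, levels averaged over 6 libraries ran from 0.103 for Ripk3 to 38.0 for Mcl1, followed by Xiap at 25.6, Cycs at 21.7, Bcl2l1 at 15.7 and Hrk at 14.7. The 7 inflammatory caspase and inflammasome genes lay between 0.229 (Casp4) and 1.43 (Casp1), and Birc3 was at 0.611. Of the 21 tested genes under 2 FPKM, 4 rose with edgeR. Of the 13 at or above it none rose with edgeR, DESeq2 or limma-voom. Over all genes tested 1.53% rose with edgeR, so none among 13 says little about abundant genes. The share of all genes that rose on each side of 2 FPKM was not determined. The log2 fold changes of those 13 lay between -0.30 and 0.40. Across the 34 tested genes the mean FPKM and the log2 fold change had a Spearman rho of -0.69, a description over genes that share the same 6 libraries and whose fold changes are noisier at low counts. The within-group spread of the tested genes, a median coefficient of variation of 15.1% in the Caspase3 group and 14.4% in the GFP group, compared with 12.6% and 11.6% over all genes tested.

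**Figure D5:**
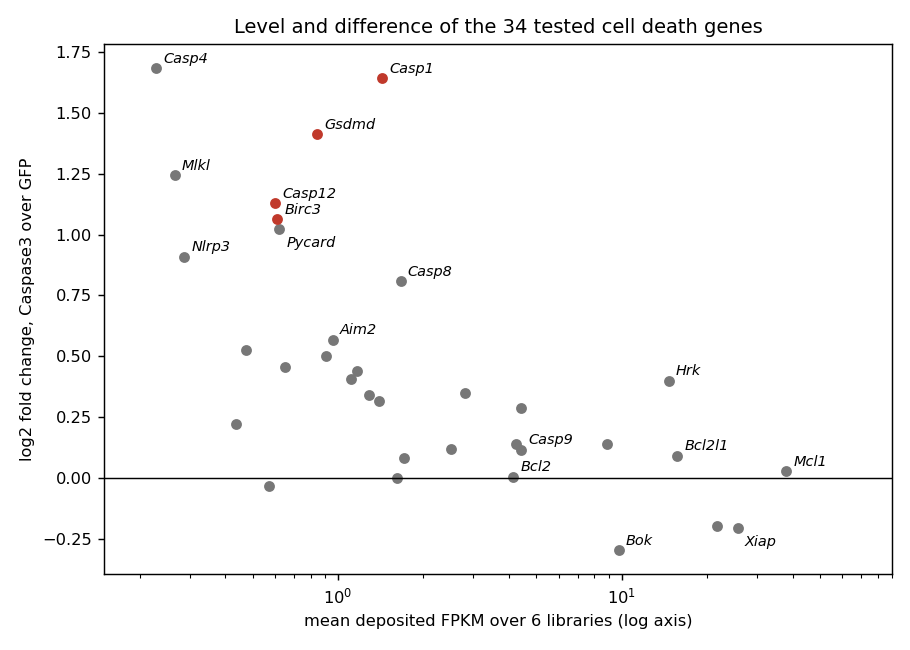
Mean deposited FPKM over 6 libraries (x axis, log scale) is plotted against the log2 fold change of Caspase3 over GFP (y axis) for the 34 tested genes, with the 4 that passed in red. The genes that rose sit below 2 FPKM, and the abundant genes Mcl1, Xiap and Bcl2l1 lie between -0.21 and 0.09.

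Of 73 further genes of these pathways, 57 were tested and 3 rose with edgeR, against 1.53% of all genes tested. DESeq2 called 8 higher and limma-voom 3. None fell with edgeR, DESeq2 or limma-voom, while 2 lower values (Dffa and Bnip3) had an unadjusted p under 0.05 with edgeR. The median log2 fold change of the 57 was 0.10. Zbp1, the nucleic acid sensor that engages Ripk3, had 5, 2 and 1 counts in the GFP libraries and stood at 8.09, 4.91 and 2.21 CPM in Caspase3 replicates 1 to 3, against at most 0.233 CPM in the GFP libraries. Zbp1 met the count filter in the Caspase3 libraries only, so it was tested because of its Caspase3 counts. The groups were far apart. The order of the 3 Caspase3 libraries was that of the interferon-stimulated sums and also of the T and NK cell sums. A link to either was not tested. The log2 fold change of Zbp1 was 5.38 ± 0.65 (adjusted p = 0.00566, and 0.0572 without GFP replicate 2).

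Naip5, a sensor of bacterial flagellin in the Nlrc4 inflammasome, stood at 3.55, 2.95 and 3.23 CPM against 1.63, 1.23 and 1.27 CPM and rose 2.36-fold (adjusted p = 0.0291). Of its 50-base words 36.8% occur in other genes, chiefly Naip6, so its count may hold reads of close copies. The BH3-only gene Bmf stood at 6.67, 5.86 and 6.03 CPM against 3.68, 2.97 and 3.38 CPM and rose 1.85-fold (adjusted p = 0.0345). The groups of both genes were separate, and neither passed with any 1 library left out.

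Gsdme, Trp53, Cdkn1a and Il18 did not pass. Gsdme, a gasdermin related to Gsdmd, had a 95% interval from -0.40 to 0.27, and the p53 gene Trp53 and its target Cdkn1a had log2 fold changes of 0.28 ± 0.18 and 0.24 ± 0.14. Of the cytokines that caspase 1 matures, Il18 stood at 13.6, 13.2 and 11.2 CPM against 11.3, 11.9 and 12.02 CPM, which overlapped, and Il1b, at most 0.426 CPM in any library, was not tested.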

How the data were processed

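Poly(A) RNA of 6 libraries was analysed. The deposited read counts per gene are whole numbers, and the deposited FPKM values equalled count divided by gene length and a library constant. The submitters' processing notes list HISAT2, featureCounts and DESeq2 with mm10 and GRCm38, without roles or versions, and no source used here gives the strand setting. Gene length (in bases) is as deposited.

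Counts were tested over all genes in R 4.3.3 with edgeR 4.0.16 (TMM, filterByExpr, glmQLFit, glmQLFTest, 6 libraries, Benjamini-Hochberg), in a script tested on simulated data. The SE is the absolute log2 fold change over the square root of F, and 95% intervals use the fit's degrees of freedom. Groups and replicate numbers come from the titles. Alternatives used DESeq2 1.42.0, limma 3.58.1, other scalings, filters and thresholds, a replicate block, and each library left out; leaving out both Caspase3 replicate 1 and GFP replicate 3 was added after seeing the data. The genes and lists were chosen with earlier results of these data known. All 35 genes are accounted for, with values per library for any at an unadjusted p under 0.05 and for 18 listed regulators; pathway genes are 6 listed ones plus those that passed (some others are not reported here), and Dffa, Bnip3 and single markers other than Gad2 and Aif1 were named after their values were seen. Exons of Pycard, Casp9, Bax, Bak1, Bid, Bad, Bcl2, Diablo, Fadd and Ripk1 overlap another gene in GENCODE M21, so their counts could hold its reads. Promoter windows are from RefSeq (GRCm38.p6). Replicates differed by more than sampling noise (mean chi-square per gene 12.6 to 33.1).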

Additional observations from a re-analysis of the deposited data

How the results depend on the processing

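Casp1, Casp12, Gsdmd and Birc3 kept a positive log2 fold change in all alternatives. The 4 cell death genes called became 7 with no filter on low counts, 0 at an adjusted p under 0.01 and 2 without both Caspase3 replicate 1 and GFP replicate 3, and 0 to 2 with 1 library left out. The 3 further pathway genes called became 8 with DESeq2, 10 (and 1 lower) with no filter, 7 with the replicate block, 5 at an adjusted p under 0.10, 1 at 0.01, 1 with limma on log2(FPKM + 0.1) and 1 on log2(FPKM + 1), 1 without both libraries, and 0 to 2 with 1 left out. Over all genes, 255 rises and 19 falls became 402 and 103 with DESeq2, 160 and 10 on log2(FPKM + 1), 663 and 250 with no filter, 114 and 4 at 0.01, and 15 to 252 rises and 2 to 33 falls with 1 library left out. Falls were 43 with the replicate block, 40 at 0.10 and 77 without both libraries. The deviations of same-numbered samples correlated at 0.06, 0.18 and 0.03, and those of differently numbered samples at -0.14 to 0.08. Caspase3 replicate 1 correlated best with GFP replicate 3, and Caspase3 replicates 2 and 3 with the GFP library of their own number. Whether the numbers mark pairs is not known. Log2 fold changes near 0 turned for uncalled genes: Casp2 was 0.00675, 0.0599 and 0.000837 with upper-quartile factors, library totals and limma-voom, Diablo 0.0259 with library totals, and Bcl2 -0.00664, -0.00649, -0.00705 and -0.00591 with DESeq2 size factors, DESeq2, log2(FPKM + 0.1) and log2(FPKM + 1). Without both libraries Casp2 was 0.0178, Bak1 -0.14, Fadd -0.13 and Gsdme 0.12. With 1 library left out Casp2 ran from -0.0481 to 0.0328, Casp6 ran from -0.0591 to 0.39, Bak1 ran from -0.11 to 0.17, Bcl2 ran from -0.0502 to 0.0334, Mcl1 ran from -0.0676 to 0.0711, Diablo ran from -0.16 to 0.0682 and Gsdme ran from -0.17 to 0.0523. The causes were not tested. The low counts of Ripk3, Mlkl and Casp4 limit their precision, and intervals cover the spread between 3 libraries a group.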
